A study of Mus musculus with 24 samples.

Results

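The genes described here are 39 genes of antioxidant defence, glutathione metabolism and NADPH supply, chosen by symbol from the 55414 gene identifiers of the count files. They were followed through 24 RNA sequencing libraries of bone marrow LSK cells, a fraction without lineage markers that carries both Kit and Sca-1 and contains blood stem cells and early progenitors. Each library came from 21-day-old mouse pups whose C57BL/6J mothers ate either regular chow, the control, or a Western diet given to make them obese. The mothers ate their diet from 4 weeks before mating and on until the end of nursing. The 4 groups were female control, female Western diet, male control and male Western diet, each with 6 libraries, and the labels place 2 libraries of every group in each of 3 batches.

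No group carries a genetic change, and all pups were sorted in the same way. The labels name neither dams nor litters and do not say whether marrow was pooled, so p-values measure the spread between libraries, and littermates may not be independent. The libraries held 38057263 to 51581968 counts in genes, of which the 39 genes took 0.691 to 1.07%. Kit was at 267 to 883 CPM, its share of the TMM-scaled library total, and Cd34 at 227 to 953 CPM over all libraries. Ly6a, which encodes Sca-1 and belongs to a family with near copies, was far lower, at 2.14 to 39.9 CPM. The reason for this low level of a marker used in the sort was not tested. In batch 3, numbers 5 and 6 of the female controls had the highest summed erythroid progenitor markers, at 5805 and 5518 CPM. The other 22 libraries were at 994 to 4137 CPM. Highest among those were male controls 5 and 6, also of batch 3, at 3944 and 4137 CPM, followed by female control 1 at 3152 CPM. Diet calls among the 39 genes are given with and without female control libraries 5 and 6, and the male pair was kept in those fits. Marker lists, ratios between genes, sex comparisons and the difference between the sexes in the diet effect are given only with the female pair included.

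Cells meet hydrogen peroxide and lipid peroxides with enzymes that draw their electrons from glutathione or thioredoxin, and both of these are in the end reduced by NADPH, much of it from the pentose phosphate pathway. The transcription factor NRF2 (encoded by Nfe2l2) is held at low levels by KEAP1 and, when released under oxidative stress, binds antioxidant response elements in the promoters of many of these genes. Hematopoietic stem cells are known to be sensitive to reactive oxygen species, and red cell precursors are known to be rich in peroxiredoxin 2, catalase and glutathione peroxidase 1, which guard hemoglobin.

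The promoters of 5 genes are shown because the results turn on them or on a close relative. Mgst3, Txnrd2 and Nqo1 had the smallest p-values for maternal diet in females, Gclm is a gene that differed when the sexes were averaged and whose promoter holds the core of the antioxidant response element, and Prdx1 holds the same core but did not pass the test. Each run is the 250 bases before the start site from RefSeq on GRCm38.p6, an older build than the one the counts were made on, written 5′ to 3′ along the gene. Capitals mark a match to TGACNNNGC, the response element core, on either strand.
Mgst3 (chr1:167393842-167394091, minus strand): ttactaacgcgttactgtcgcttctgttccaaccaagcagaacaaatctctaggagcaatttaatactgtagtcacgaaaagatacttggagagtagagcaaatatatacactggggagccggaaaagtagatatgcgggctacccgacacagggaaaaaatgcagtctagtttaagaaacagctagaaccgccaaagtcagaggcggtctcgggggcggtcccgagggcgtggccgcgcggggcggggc
Txnrd2 (chr16:18426167-18426416, plus strand): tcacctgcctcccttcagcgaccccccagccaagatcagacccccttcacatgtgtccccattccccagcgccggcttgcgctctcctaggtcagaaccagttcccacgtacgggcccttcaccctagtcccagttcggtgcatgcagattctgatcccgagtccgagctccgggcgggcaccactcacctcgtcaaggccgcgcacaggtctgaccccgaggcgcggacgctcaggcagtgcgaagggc
Nqo1 (chr8:107403206-107403455, minus strand): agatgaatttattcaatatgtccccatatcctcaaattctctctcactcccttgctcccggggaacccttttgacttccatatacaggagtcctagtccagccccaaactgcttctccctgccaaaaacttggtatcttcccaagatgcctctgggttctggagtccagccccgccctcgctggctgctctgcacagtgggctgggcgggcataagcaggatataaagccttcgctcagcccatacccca
Gclm (chr3:122245307-122245556, plus strand): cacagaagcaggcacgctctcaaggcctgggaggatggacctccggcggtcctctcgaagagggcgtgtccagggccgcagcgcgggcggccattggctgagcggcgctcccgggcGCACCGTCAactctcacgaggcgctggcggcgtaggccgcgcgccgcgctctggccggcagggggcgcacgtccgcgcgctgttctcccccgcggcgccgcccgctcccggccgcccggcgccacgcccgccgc
Prdx1 (chr4:116685349-116685598, plus strand): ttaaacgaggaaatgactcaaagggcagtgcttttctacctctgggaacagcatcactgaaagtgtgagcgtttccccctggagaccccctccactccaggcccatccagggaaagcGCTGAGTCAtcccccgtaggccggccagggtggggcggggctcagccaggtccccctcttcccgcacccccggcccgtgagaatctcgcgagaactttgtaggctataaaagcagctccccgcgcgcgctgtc

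The match in Gclm begins 134 bases before its start and that in Prdx1 133 bases before, where it overlaps a match to TGANTCA, the site of AP-1 factors. The search covered windows of 300 bases, from 250 before to 50 after the start, on both strands, and 33 of the 39 genes had a window in the RefSeq table. The response element core was found in 9 of these 33 (27.3%): G6pdx, Gclm, Me1, Nfe2l2, Pgd, Prdx1, Sod1, Srxn1 and Txnrd1. It was found in 14.0% of the 27025 genes with a window. TGANTCA was found in 5 of 33 genes (15.2%) against 8.97% of all genes, and AGATAA, the site of GATA factors, in 1 of 33 (Keap1) against 12.7%. None of the 3 motifs was found in the windows of the 6 genes that fell in females, which says only that these letters are not in these windows.

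All 39 genes passed the filter on low counts, and their levels spanned a wide range. Levels between genes are compared as CPM per kilobase of annotated exons. Gpx1, the main cytosolic glutathione peroxidase, stood at 1177 ± 241 CPM per kilobase (mean ± SD over the 24 libraries) and lay above the range of every other gene. The cytosolic thioredoxin Txn1 followed at 307, the deglycase Park7 at 276, the pentose phosphate enzyme Taldo1 at 218, the peroxiredoxin Prdx1 at 213 and the lipid peroxide reductase Gpx4 at 207 CPM per kilobase, and neighbours from Txn1 down to Gsta4 in this order overlapped in range. At the other end stood Gsta4 at 4.21, Srxn1, which repairs overoxidised peroxiredoxins, at 1.99 and Me1, the cytosolic malic enzyme, at 0.04 CPM per kilobase. Me1 had 0 to 18 counts per library.

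**Figure D1:**
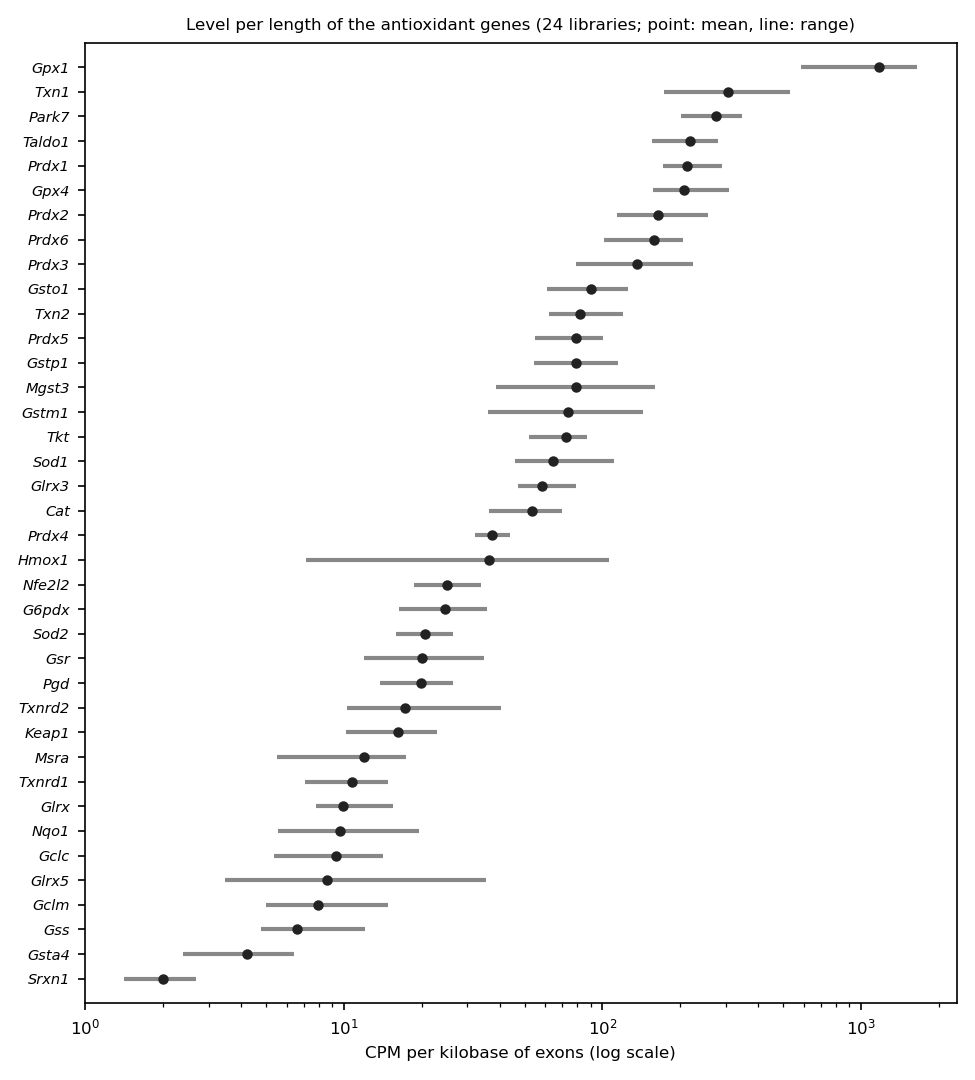
Level of 38 genes as CPM per kilobase of exons on a log axis, with the mean (point) and range (line) over 24 libraries; Me1 is not drawn because it has 0 counts in a library. Gpx1 stands apart at the top, Srxn1 is lowest, and Hmox1 and Glrx5 have the longest lines.

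Within a role, genes differed in mean level per length, but the ranges over libraries often overlapped, and the values below are means. Among the NRF2 pair, Nfe2l2 stood at 25.1 (range 18.6 to 34.1) and Keap1, its repressor, at 16.3 CPM per kilobase (range 10.2 to 22.9). Of the superoxide dismutases and catalase, the cytosolic Sod1 was highest at 64.4, followed by Cat at 53.6 and the mitochondrial Sod2 at 20.6. Glrx3, which serves iron and sulfur cluster assembly, led the glutaredoxins at 58.2, and Gsto1 led the glutathione transferases at 90.2 CPM per kilobase. The genes of glutathione synthesis and recycling were low, from 6.59 for Gss to 19.96 for Gsr, which returns oxidised glutathione to its reduced form. Between libraries, the highest CPM of Hmox1, the heme oxygenase, was 14.9 times its lowest and that of Glrx5, a mitochondrial glutaredoxin of iron and sulfur cluster assembly, 10.2 times, while for Prdx4 the ratio was 1.36.

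Maternal Western diet was followed by lower levels of 6 of the 39 genes in female pups, and no gene was higher. The 6 were the microsomal glutathione transferase Mgst3, the mitochondrial thioredoxin reductase Txnrd2, the quinone reductase Nqo1, the peroxiredoxins Prdx2 and Prdx3, and Gpx4. A gene was called when its p-value, from edgeR's quasi-likelihood test over all 19616 genes tested and adjusted by the method of Benjamini and Hochberg, was under 0.05. By this rule 3.22% of all genes were called lower in females and 2.2% higher. The median log2 fold change of the 39 genes was -0.13, against 0.03 over all genes. Of the 39 genes 26 were negative, and of all 19616 genes 9109 were. An unadjusted p under 0.05 by edgeR was found for 14 of the 39 and for 4183 of the 19616. DESeq2 called 9, the same 6 with Prdx6, Gss and Gsta4. Limma-voom called 6, with Prdx6 in place of Prdx3. All of these were lower. The shares of all genes called in females by DESeq2, by limma-voom or in batch 3 alone are not given here, so these counts have no background beside them. In batch 3 alone, with 2 libraries a group, 8 genes were called and not all were lower: Prdx5 (0.69), Msra (1.34) and Gstm1 (1.31) were higher, and Mgst3, Txnrd2, Nqo1, Keap1 and Gss lower.

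**Figure D2:**
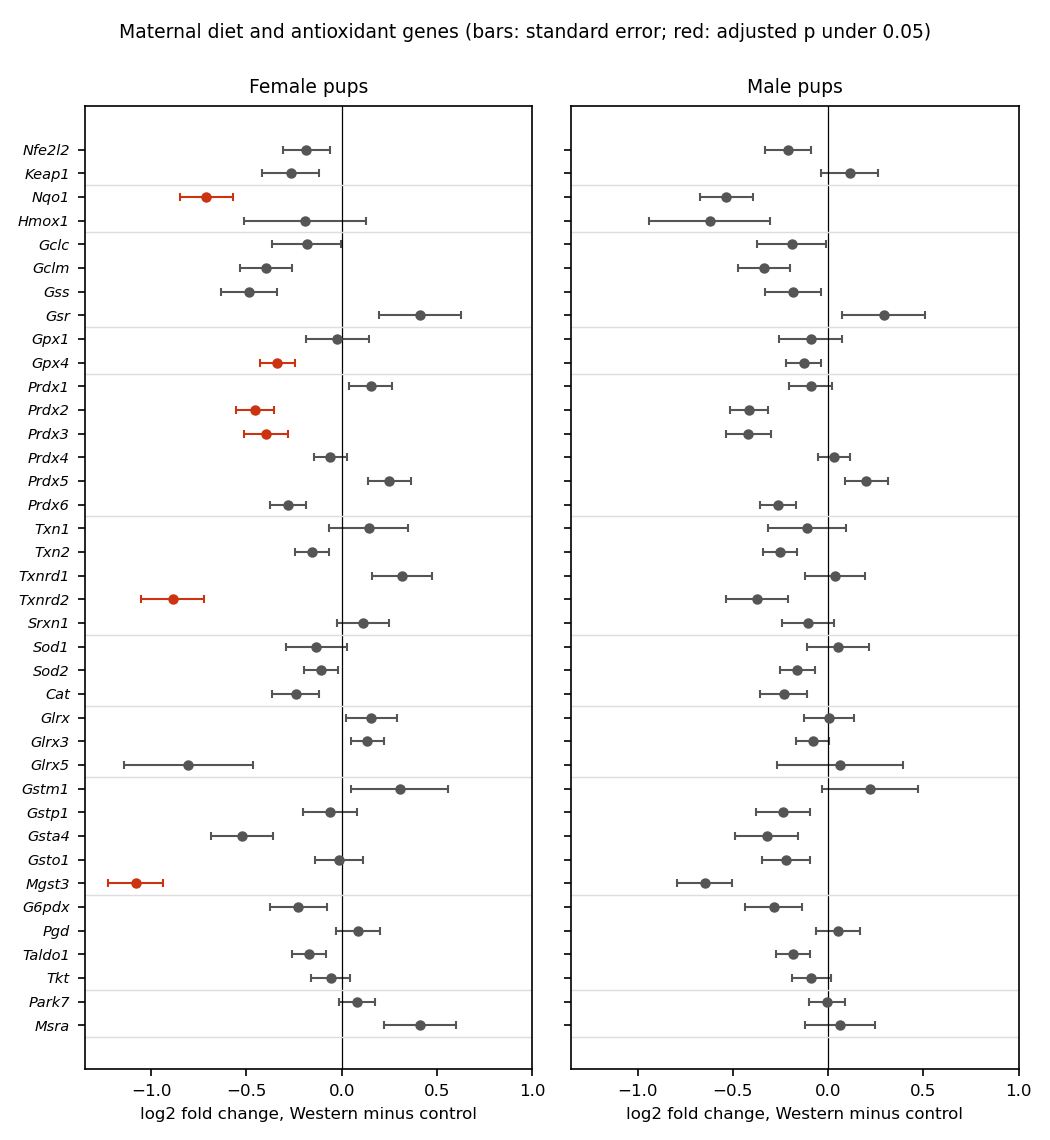
Log2 fold change, Western diet minus control, of 38 genes in female pups (left) and male pups (right), in the order of their roles, with bars for the standard error from edgeR and red for genes called at an adjusted p under 0.05; Me1 is not drawn. The 6 red points are all in females and all below 0, and the same genes lie below 0 in males without being called.

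Mgst3, which reduces lipid hydroperoxides with glutathione (ENSMUSG00000026688, chromosome 1), ranged from 82.1 to 175 CPM with a median of 114 in female controls. In Western-diet females it ranged from 42.7 to 79.8 CPM with a median of 56.0. All 6 Western-diet libraries thus lay below all 6 controls. Mean levels were 122 ± 33.3 CPM in controls and 57.3 ± 13.1 CPM with Western diet (± SD, n = 6), a 2.12-fold fall with a log2 fold change of -1.08 (SE 0.14, adjusted p = 0.000123 by edgeR). It measured -1.02, -1.04 and -1.21 in batches 1, 2 and 3, and -1.05 without female control libraries 5 and 6 (adjusted p = 0.00389).

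In males Mgst3 did not pass the test. Control males ranged from 69.9 to 170 CPM with a median of 78.4, and Western-diet males from 46.9 to 75.2 CPM with a median of 62.3. Here 5 of 6 Western-diet libraries lay below all controls, and the log2 fold change was -0.65 (SE 0.14, adjusted p = 0.141 by edgeR). It measured -0.10 in batch 1, -0.47 in batch 2 and -1.40 in batch 3.

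Of the other 4 glutathione transferases, which join glutathione to toxic compounds, none was called in females. Gsta4, which clears the lipid peroxidation product 4-hydroxynonenal, ranged from 5.84 to 7.29 CPM in female controls and from 3.03 to 5.72 CPM with Western diet. These groups did not overlap, yet the adjusted p was 0.0602 at a log2 fold change of -0.52. Over all genes the female groups did not overlap in 1.18%, and in 3 of the 39 genes here (Mgst3, Txnrd2 and Gsta4). Gstp1, whose reads can be shared with its near copy Gstp2, measured -0.06, Gsto1 -0.02 and Gstm1 0.30 on the log2 scale.

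Txnrd2, which keeps the mitochondrial thioredoxin reduced (ENSMUSG00000075704, chromosome 16), was at 70.1 to 178 CPM with a median of 92.9 in female controls. It was at 46.1 to 65.2 CPM with a median of 58.2 in Western-diet females, so the groups did not overlap. The fall was 1.85-fold, from 112 ± 47.3 to 56.5 ± 6.99 CPM, with a log2 fold change of -0.89 (SE 0.16, adjusted p = 0.00208 by edgeR). Female control libraries 5 and 6 were the highest of all libraries, at 178 and 164 CPM. Without them the log2 fold change was -0.67 and the call was lost (adjusted p = 0.0676). The call of Txnrd2 was also lost with batch 3 left out. By batch Txnrd2 measured -0.56, -0.56 and -1.57.

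In males Txnrd2 ranged from 49.5 to 124 CPM in controls and from 45.3 to 68.4 CPM with Western diet. Its log2 fold change was -0.37 (adjusted p = 0.534 by edgeR), with -0.00, -0.29 and -0.86 in batches 1, 2 and 3. The rest of the thioredoxin system was not called in either sex. In females the cytosolic reductase Txnrd1 measured 0.32, Txn1 0.14, the mitochondrial thioredoxin Txn2 -0.15 and Srxn1 0.11 on the log2 scale. In males Txn2 had one of the 6 smallest p-values, with a log2 fold change of -0.25 (SE 0.09, adjusted p = 0.411) and medians of 351 CPM in controls and 303 CPM with Western diet.

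**Figure D3:**
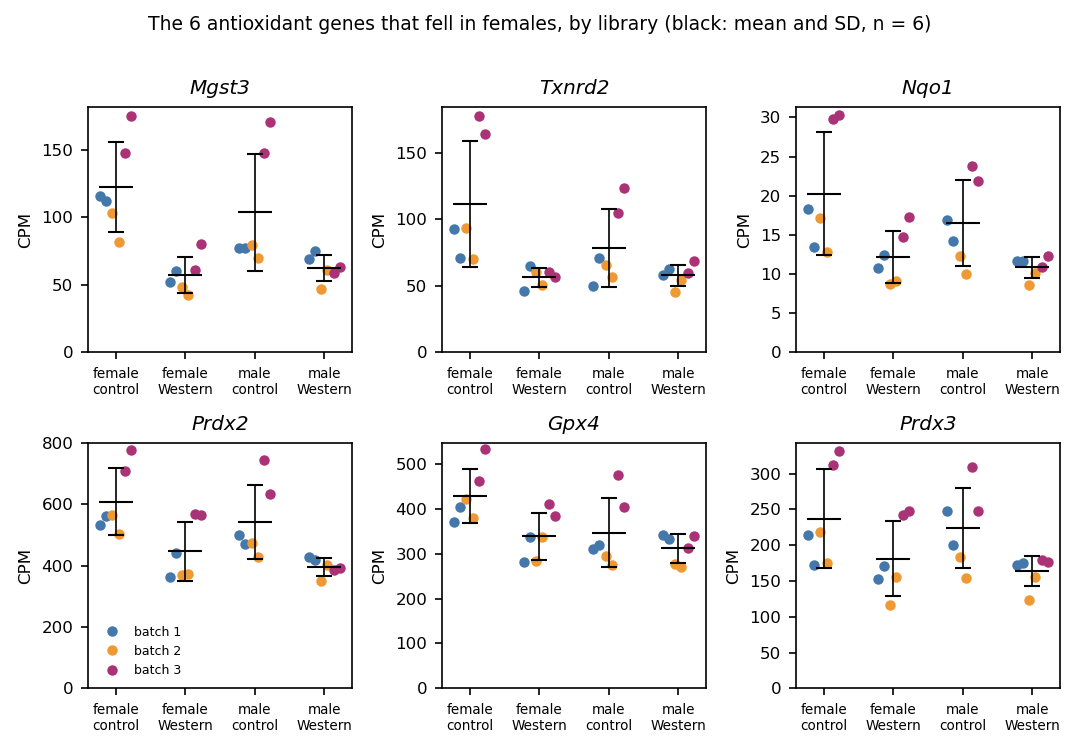
CPM in each of the 24 libraries for the 6 genes that fell in females, on axes that start at 0, with points coloured by labelled batch and black bars for the mean and SD of each group (n = 6). Mgst3 and Txnrd2 do not overlap between female groups, and in all 6 panels the highest female and male controls are of batch 3.

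The contrast between mitochondrial and cytosolic enzymes was tested directly, as ratios chosen after the values above were seen, so the p-values below are a description. The log2 ratio of Txnrd2 to Txnrd1 was 0.54 ± 0.51 in female controls and -0.64 ± 0.35 in Western-diet females (mean ± SD, n = 6), a difference of -1.19, and these groups did not overlap. A two-sided exact permutation test within batch gave p = 0.00926, the smallest that its 216 rearrangements allow, and 0.0556 after adjustment over the 6 ratios tested. In males the same ratio differed by -0.40 (exact permutation p = 0.213, adjusted 0.256). The ratio of the mitochondrial Prdx3 to the cytosolic Prdx1 differed by -0.53 in females (exact permutation p = 0.0278, adjusted 0.0741) and by -0.33 in males (exact permutation p = 0.0370, adjusted 0.0741). Txn2 to Txn1 differed by -0.25 in females (exact permutation p = 0.361) and -0.16 in males (exact permutation p = 0.111). With 6 ratios, the smallest p the design allows could not pass for a single ratio after adjustment, so these tests decide nothing.

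Nqo1, a target of NRF2 that reduces quinones (ENSMUSG00000003849, chromosome 8), ranged from 12.8 to 30.2 CPM with a median of 17.7 in female controls and from 8.68 to 17.3 CPM with a median of 11.6 with Western diet. The groups overlapped, and 4 of the 6 libraries from the Western-diet group were below every control. It fell 1.64-fold, with a log2 fold change of -0.71 (SE 0.14, adjusted p = 0.00338 by edgeR), and by batch it measured -0.45, -0.76 and -0.92. The call was lost without female control libraries 5 and 6 (-0.57, adjusted p = 0.106), without a batch term (adjusted p = 0.0986) and without batch 2 (0.0607) or batch 3 (0.112). In males it ranged from 9.99 to 23.8 CPM in controls and from 8.62 to 12.3 CPM with Western diet, with a log2 fold change of -0.54 (SE 0.14, adjusted p = 0.219).

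The NRF2 pair itself and heme oxygenase were not called. In females Nfe2l2 had medians of 98.8 CPM in controls and 85.2 CPM with Western diet, and a log2 fold change of -0.19 (adjusted p = 0.406). In males its medians were 97.01 and 83.7 CPM, with -0.21 (adjusted p = 0.663). Keap1 had medians of 80.5 and 70.2 CPM in females (-0.27) and of 70.4 and 80.1 CPM in males (0.11), and part of its exons (10.9%) overlap another annotated gene. Hmox1, another NRF2 target, ranged from 24.5 to 186 CPM in female controls and from 12.5 to 117 CPM in Western-diet females (log2 fold change -0.19, SE 0.32). By batch it measured -0.78, -0.95 and 0.86 in females, so the batches differed in sign. In males it ranged from 23.1 to 111 and from 22.9 to 86.7 CPM (-0.62, SE 0.32, adjusted p = 0.611).

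The 6 peroxiredoxins, which reduce peroxides with the help of thioredoxin or glutathione, did not move as one. Prdx2 (ENSMUSG00000005161, chromosome 8) ranged from 505 to 779 CPM with a median of 564 in female controls and from 362 to 569 CPM with a median of 407 in Western-diet females. It fell 1.37-fold, with a log2 fold change of -0.45 (SE 0.10, adjusted p = 0.00795 by edgeR) that was -0.45, -0.53 and -0.41 by batch. Without female control libraries 5 and 6 it measured -0.43 and was not called (adjusted p = 0.103). The call of Prdx2 was also lost without a batch term and with batch 2 left out. In males Prdx2 ranged from 427 to 745 CPM in controls and from 349 to 428 CPM with Western diet, where 5 of 6 libraries lay below all controls. The log2 fold change was -0.42 (SE 0.10, adjusted p = 0.182 by edgeR). The exons of Prdx2 share 11.5% of their length with Junb and Rnaseh2a, and reads there cannot be assigned with certainty because the library kit does not mark strand.

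Prdx3, the mitochondrial member (ENSMUSG00000024997, chromosome 19), ranged from 173 to 332 CPM with a median of 216 in female controls and from 117 to 247 CPM with a median of 163 with Western diet. It fell by 0.40 on the log2 scale (SE 0.12, adjusted p = 0.0468 by edgeR), and -0.26, -0.54 and -0.41 were measured by batch. Female control libraries 5 and 6 left out, it measured -0.32 and was not called (adjusted p = 0.342). In males it ranged from 153 to 309 CPM in controls and from 123 to 179 CPM with Western diet, and measured -0.42 (SE 0.12, adjusted p = 0.268). The call in females was near the threshold, and was lost when any of 11 of the 24 libraries was left out: female control 1, 3, 5 or 6, female Western diet 1, 3, 5 or 6, or male control 2, 3 or 5 (adjusted p up to 0.133). It was also lost by limma-voom, with upper-quartile instead of TMM scaling, and without a batch term.

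Prdx6, which uses glutathione, had medians of 828 and 686 CPM in female controls and Western-diet females and 797 and 693 CPM in males, with log2 fold changes of -0.28 (adjusted p = 0.0772) and -0.26 (adjusted p = 0.417). It has an annotated pseudogene that could take or give reads. Prdx1 measured 0.15 in females and -0.09 in males, Prdx4, which works in the endoplasmic reticulum, -0.06 and 0.03, and Prdx5 0.25 and 0.20. None of these was called.

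Of the glutathione peroxidases, the lipid peroxide reductase Gpx4 (ENSMUSG00000075706, chromosome 10) fell in females and the abundant Gpx1 was not called. Gpx4 ranged from 370 to 534 CPM with a median of 414 in female controls and from 281 to 412 CPM with a median of 338 with Western diet. Its log2 fold change was -0.34 (SE 0.09, adjusted p = 0.0301 by edgeR), with -0.33, -0.38 and -0.34 by batch, and the call was lost when any of 5 libraries was left out (female control 3 and 6, female Western diet 3, 5 and 6, adjusted p up to 0.0899). With both female control 5 and 6 left out it measured -0.35 and was not called (adjusted p = 0.171). Gpx4 was also not called with upper-quartile scaling, without a filter on low counts or without a batch term. In males it measured -0.13 (adjusted p = 0.731), with medians of 316 and 323 CPM. Gpx1 had medians of 1817 and 1818 CPM in females, with a log2 fold change of -0.02 (SE 0.17), and of 1572 and 1602 CPM in males. Gpx4 has an annotated pseudogene as well.

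None of the 4 genes of glutathione synthesis and recycling was called within a sex. Gss, which makes glutathione from its precursor, came nearest in females: it ranged from 31.5 to 71.2 CPM in controls and from 28.2 to 45.02 CPM with Western diet (log2 fold change -0.49, SE 0.15, adjusted p = 0.0508), and 15.4% of its exon length is shared with other genes. Gclm, the regulatory subunit of the enzyme that makes that precursor, had medians of 53.1 and 46.6 CPM in females (-0.40, adjusted p = 0.0865) and of 49.5 and 39.1 CPM in males (-0.34, adjusted p = 0.491). Its catalytic partner Gclc measured -0.18 in females, and Gsr measured 0.41 (SE 0.22, adjusted p = 0.283).

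The enzymes that supply NADPH and the remaining genes were not called in either sex. G6pdx, the entry enzyme of the pentose phosphate pathway, had medians of 80.1 and 63.7 CPM in females (log2 fold change -0.23, SE 0.15) and of 80.1 and 68.4 CPM in males (-0.29, SE 0.15). Taldo1 measured -0.17 and -0.19, and the medians of its 4 groups lay between 430 and 496 CPM. Sod1 measured -0.13 in females and 0.05 in males, Cat -0.24 and -0.23, Glrx3 0.14 and -0.08, and Park7 0.08 and -0.01. Msra, a methionine sulfoxide reductase, measured 0.41 in females (adjusted p = 0.205). Glrx5 measured -0.81 with an SE of 0.34 in females, where female control library 5 was at 131 CPM and the group median was 34.9 CPM. Glrx measured 0.15 and 0.00, Pgd 0.08 and 0.05, and Tkt -0.06 and -0.09, and Me1 had too few counts to compare.

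For the remaining roles, the genes with the highest level per kilobase had CPM ranges that overlapped between the diets. Txn1 ranged from 215 to 433 CPM in female controls and from 181 to 559 CPM with Western diet, and in males from 236 to 433 and from 245 to 344 CPM. Prdx1 ranged from 547 to 692 and from 523 to 884 CPM in females, and from 578 to 790 and from 581 to 705 CPM in males. The standard deviations of both in females were larger with Western diet, at 135 against 73.1 CPM for Txn1 and 136 against 60.5 CPM for Prdx1, which was not tested. Sod1 averaged 291 ± 81.2 CPM in female controls, 261 ± 56.9 in Western-diet females, 233 ± 44.1 in male controls and 239 ± 33 in Western-diet males. Park7 averaged 677 ± 45, 718 ± 124, 673 ± 63.5 and 670 ± 47.9 CPM in the same order, and Gsto1 186 ± 14.7, 189 ± 48.6, 191 ± 42.1 and 164 ± 22.5 CPM. No diet comparison of these genes was called.

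In males as a whole, none of the 39 genes was called by edgeR, against 0.0102% of all genes (2 genes). An unadjusted p under 0.05 by edgeR was found for 9 of the 39 and for 1657 of the 19616 genes tested. DESeq2 called Mgst3, Prdx2 and Nqo1 and limma-voom Mgst3 and Prdx2, all lower. The shares of all genes that DESeq2 and limma-voom called in males are not given here. The median log2 fold change was -0.13 and 27 of 39 were negative, against a median of 0.02 and 9063 negative over all 19616 genes. No gene of the 39 had groups that did not overlap in males, where 0.5% of all genes did.

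The difference between the sexes was tested itself, and no gene of the 39 was called, nor was any gene in the genome-wide test (0% called). The largest differences of the diet effects by p, male minus female, were 0.52 for Txnrd2 (SE 0.23, adjusted p = 0.590) and 0.43 for Mgst3 (SE 0.20, adjusted p = 0.596). These 2 genes were the ones of the 39 with an unadjusted p under 0.05 by edgeR, against 1633 of all 19616 genes tested. DESeq2 and limma-voom called none. For Prdx2, Prdx3 and Prdx6 the differences were 0.04, -0.02 and 0.02.

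Averaged over both sexes, 9 of the 39 genes fell and none rose, where 3.51% of all genes were called lower and 2.19% higher. These were the 6 genes that fell in females together with Prdx6, Gclm and Gsta4. The log2 fold changes were -0.86 for Mgst3 (SE 0.10, adjusted p = 2.49e-05 by edgeR), -0.62 for Nqo1, -0.63 for Txnrd2, -0.44 for Prdx2, -0.41 for Prdx3, -0.27 for Prdx6, -0.37 for Gclm, -0.42 for Gsta4 and -0.23 for Gpx4. Gss (-0.34, adjusted p = 0.0557) and Txn2 (-0.20, adjusted p = 0.0562) lay just outside. The call of Gclm was lost without female control 6 or male Western diet 5 (adjusted p up to 0.0563). That of Gsta4 was lost without female control 3 or 6, male control 3 or 5, or male Western diet 5 or 6 (up to 0.0717), and that of Gpx4 without female control 3 or 6, male control 5 or 6, or male Western diet 5 (up to 0.0764). Without both female control 5 and 6, Mgst3, Nqo1, Prdx2, Txnrd2 and Prdx3 stayed called, and Prdx6 (-0.27, adjusted p = 0.060), Gclm (-0.27, 0.137), Gsta4 (-0.43, 0.0914) and Gpx4 (-0.24, 0.0824) did not. Male control 5 and 6 were kept in that fit. With batch 3 left out, only Mgst3 and Prdx2 stayed called. The comparison averaged over both sexes shares its libraries with both others and is no separate evidence.

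Most markers of red cell precursors were also lower with Western diet. Of 10 erythroid progenitor markers 8 were called lower and 9 were negative in females (median log2 fold change -1.21). Their summed levels were 1917 to 5805 CPM in controls and 994 to 2406 CPM with Western diet. In males 1 of 10 was called lower, but 9 were negative and 7 had an unadjusted p under 0.05 by edgeR (median -0.57). The sums in males were 1431 to 4137 and 1086 to 1929 CPM. The most abundant, the red cell membrane gene Ermap, ranged from 428 to 1503 CPM in female controls and from 185 to 523 CPM in Western-diet females. Of 10 mature erythroid markers 4 were called lower in females and all 10 were negative (median -0.77). Their sums were 1270 to 8654 CPM in controls and 697 to 2858 CPM with Western diet. In males none was called, but all 10 were negative with an unadjusted p under 0.05 (median -1.22), and the sums were 2608 to 6986 and 959 to 3231 CPM. The most abundant, Hbb-bs, an adult beta globin, was at 202 to 3622 CPM. No marker of either list was at 0. In bulk samples, fewer cells of a type and less RNA per cell cannot be told apart.

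With the mean level of the erythroid progenitor markers as a covariate, none of the 39 genes was called in females and none had an unadjusted p under 0.05. That fit called 0% of all genes for diet in females and 0% for the average over both sexes, so it left no diet call anywhere in the genome. The log2 fold changes in females were -0.31 for Mgst3, -0.00 for Txnrd2, 0.16 for Nqo1, -0.07 for Prdx2, 0.11 for Prdx3 and -0.10 for Gpx4. The covariate itself was lower with Western diet, so what it shares with diet cannot be told apart. With the mature erythroid level in its place Mgst3 measured -1.0 (adjusted p = 0.00567) and Txnrd2 -1.07 (adjusted p = 0.00741) in females, and both stayed called, as did Nqo1 (-0.77, adjusted p = 0.0227). The calls of Prdx2 (-0.40), Gpx4 (-0.37) and Prdx3 (-0.38) were lost with it, at adjusted p of 0.0925, 0.104 and 0.179. Without female control libraries 5 and 6, 1 of the 39 genes was called in females, Mgst3, where 0.763% of all genes were.

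**Figure D4:**
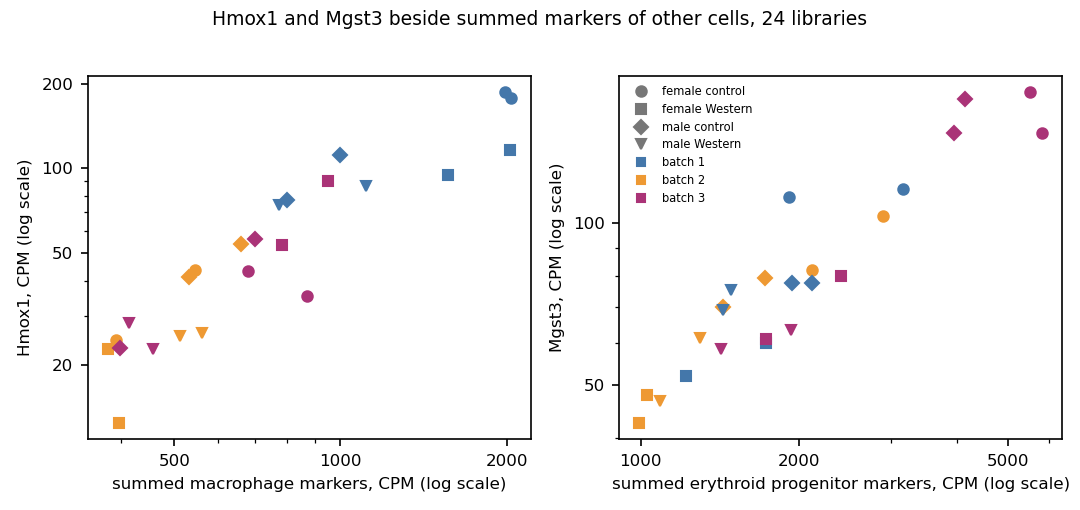
Hmox1 against the summed macrophage markers (left) and Mgst3 against the summed erythroid progenitor markers (right), in CPM on log axes, 1 point per library, with shape for group and colour for batch. The 5 libraries with the highest Hmox1 are all of batch 1, where macrophage sums run from 773 to 2033 CPM, and the 4 libraries with Mgst3 above 140 CPM are the batch 3 controls with erythroid progenitor sums of 3944 CPM or more.

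Of the other lists, those of granulocyte-monocyte progenitors and B cells had the largest positive medians in females, but they were not alone. Positive too were 7 of 8 mast cell and basophil markers (median log2 fold change 0.49), 8 of 12 of LSK and multipotent progenitors (0.36), 7 of 9 of mature neutrophils (0.34) and 8 of 11 of T, NK and innate lymphoid cells (0.15). Negative were 7 of 8 megakaryocyte markers (-0.34) and 11 of 12 of proliferation (-0.12). The 10 granulocyte-monocyte progenitor markers had a median log2 fold change of 0.84, with 1 called higher and 1 negative, and their sums ran from 2643 to 6071 CPM in controls and from 4253 to 13039 CPM with Western diet (most abundant Mpo, at 1474 to 7828 CPM over all libraries). The 11 B cell and plasma cell markers had a median of 0.50 with 3 called higher and 0 negative, and sums of 384 to 1209 and 533 to 2302 CPM (Ighm, 263 to 1375 CPM). In males these medians were 0.34 and -0.03. Also called higher in females were 1 of 11 markers of T, NK and innate lymphoid cells (Nkg7, 103 to 364 CPM) and 2 of 12 markers of LSK and multipotent progenitors. None passed among the markers of macrophages (12, Vcam1 at 47.3 to 502 CPM), megakaryocytes (8 tested, Itga2b at 45.5 to 116 CPM), mature neutrophils (9 tested, S100a8 at 6.32 to 97.5 CPM), mast cells and basophils (8, Prss34 at 121 to 765 CPM), stroma and endothelium (8, Col1a1 at 79.8 to 948 CPM) or proliferation (12, Mcm2 at 427 to 1141 CPM). In males none of these passed. The part of these cells in the antioxidant results was not tested beyond the macrophage and proliferation covariates. With the macrophage level as covariate Mgst3 measured -1.08 and Txnrd2 -0.89 in females, and both were called with Nqo1, Prdx2 and Gpx4, while Prdx3 lost its call (adjusted p = 0.0573). With the proliferation level Mgst3 (-0.93) and Txnrd2 (-0.75) stayed called, and Nqo1 (-0.49, adjusted p = 0.0536), Prdx2 (-0.34, 0.085), Gpx4 (-0.31, 0.129) and Prdx3 (-0.21, 0.311) lost their calls.

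Labelled batch separated these genes more often than diet did. The batch terms were called for 15 of 39 genes, where 24.2% of all genes were called. An unadjusted p under 0.05 by edgeR was found for 17 of the 39 and for 7261 of the 19616 genes tested. Hmox1 differed most: it averaged 116 ± 43.5 CPM in batch 1, 31.3 ± 13.6 in batch 2 and 44.1 ± 22.7 in batch 3 (mean ± SD, n = 8), and the lowest library of batch 1 (74.3 CPM) lay above the highest of batch 2 (54.0 CPM). Macrophages degrade heme with HMOX1, and all 12 macrophage markers were also called for batch. Their sums were 773 to 2033 CPM in batch 1, 379 to 659 CPM in batch 2 and 398 to 948 CPM in batch 3, and their part in the level of Hmox1 was not tested.

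The other 14 genes called for batch were highest in batch 3 on average. Nqo1 averaged 13.7, 11.1 and 20.1 CPM in batches 1, 2 and 3, Prdx3 188, 160 and 255 CPM, Txn2 322, 302 and 408 CPM, Sod2 190, 191 and 238 CPM, and Nfe2l2 86.2, 87.1 and 112 CPM. Mgst3, Prdx2, Gpx4, Txnrd2, Gss, Taldo1, Prdx6, Gclm and Gsto1 made up the rest. The 10 erythroid progenitor markers were all called for batch too, and with their level as covariate 1 of the 39 genes was called for batch. The share of all genes called for batch in that fit is not given here. As the covariate's own markers differed by batch, what it shares with batch cannot be told apart. Each batch holds 2 libraries of every group, so batch and diet were not mixed by the design.

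**Figure D5:**
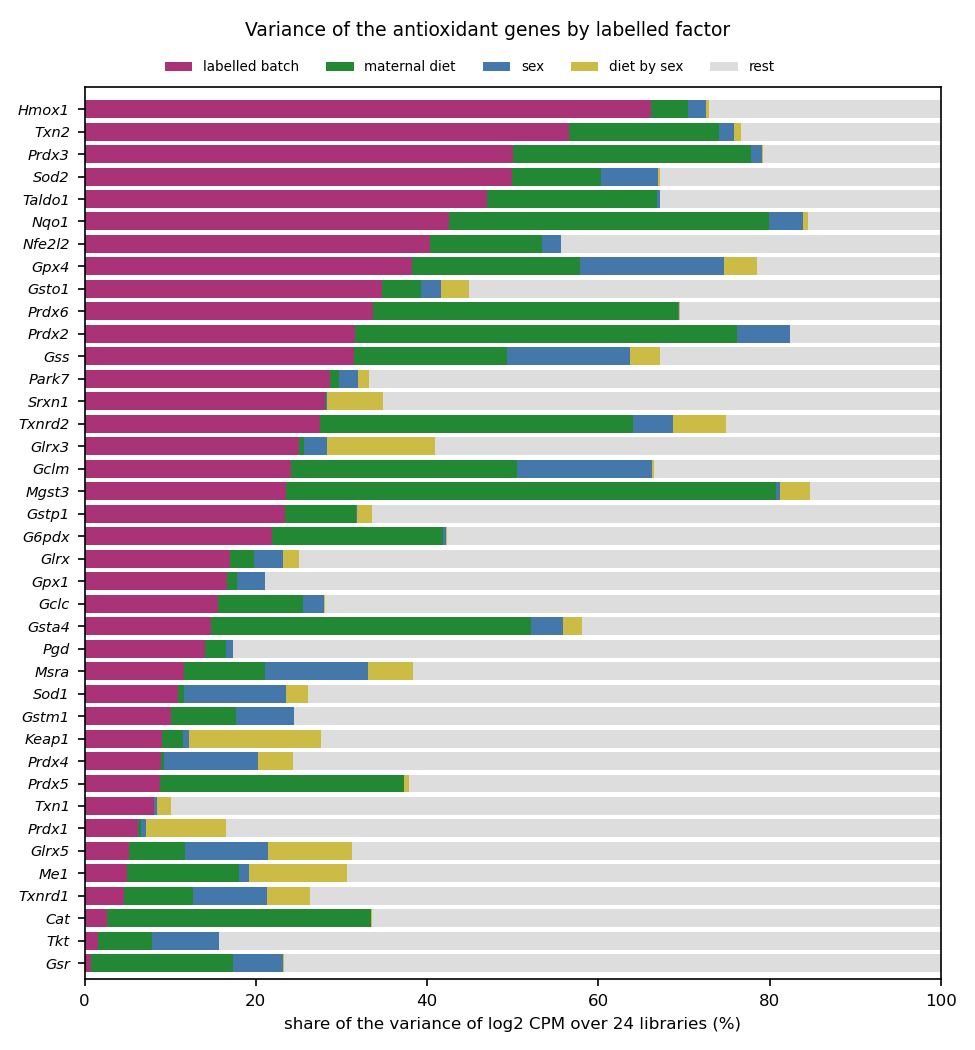
Share of the variance of log2 CPM over 24 libraries that falls to labelled batch, maternal diet, sex, diet by sex and the rest, for each of the 39 genes, ordered by the batch share. Hmox1 has the largest batch share and Mgst3 the largest diet share, and for most genes the rest is the largest part.

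As a share of the variance of log2 CPM over the 24 libraries, batch held a median of 21.9% for the 39 genes, diet 9.88%, sex 2.45% and diet by sex 1.30%, and 62.1% was left. The batch share was highest for Hmox1 (66.2%), Txn2 (56.6%) and Prdx3 (50.1%). The diet share was highest for Mgst3 (57.3%), followed by Prdx2 (44.6%), Nqo1 (37.4%), Gsta4 (37.3%) and Txnrd2 (36.6%). For Txn1 89.9% was left, the most of all. Within single batches the median log2 fold change of the 39 genes in females was -0.18, -0.19 and -0.04, with 32, 27 and 21 of 39 negative, and in males -0.13, -0.10 and -0.21, with 29, 24 and 29 negative.

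Sex by itself gave no call among the 39 genes. In control pups edgeR called none, against 0.112% of all genes. It gave an unadjusted p under 0.05 for 7 of the 39 and for 2583 of the 19616 genes tested. DESeq2 and limma-voom each called Gpx4, lower in males. Gpx4 averaged 429 ± 60.9 CPM in female and 347 ± 76.8 CPM in male controls (n = 6), a log2 difference, male minus female, of -0.32 (SE 0.09, adjusted p = 0.155 by edgeR). Gss (-0.46, adjusted p = 0.187), Txnrd2 (-0.49, adjusted p = 0.198) and Glrx5 (-0.95, adjusted p = 0.233) came next. Among Western-diet pups edgeR called none, against 0.0816% of all genes, and DESeq2 and limma-voom called none. By edgeR none of the 39 had an unadjusted p under 0.05, against 1324 of the 19616 genes tested. There Gpx4 averaged 340 and 313 CPM and Txnrd2 56.5 and 58.0 CPM in females and males.

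A further 136 genes of the same pathways were looked at as a list, and 132 of them passed the filter. In females 12 were called, 8 lower and 4 higher, where 3.22% of all genes were called lower and 2.2% higher, so the higher calls were near the share over all genes. The median of the 132 was 0.03 on the log2 scale, as it was over all genes. The lower ones began with Blvrb, the biliverdin reductase B of red cells and an NRF2 target (log2 fold change -1.10, adjusted p = 0.000275), which averaged 311 ± 103 CPM in controls and 151 ± 68.1 CPM with Western diet. Next were the transferase Gstm5 (-0.93, adjusted p = 0.000468), Hagh, which clears glutathione conjugates of methylglyoxal (-0.84, adjusted p = 0.000887), the folate enzyme Mthfd1 (-0.63) and the stress-induced Sesn2 (-0.98). Chac2, Pon2 and Shpk also fell (-0.51, -0.37 and -0.63).

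The pathway genes that rose in females included genes of different roles. Txndc12, a thioredoxin-fold protein of the endoplasmic reticulum, averaged 51.3 ± 6.96 CPM in controls and 69.5 ± 8.66 CPM with Western diet, and these groups did not overlap (log2 fold change 0.45, adjusted p = 0.00972). Tigar, which steers glucose into the pentose phosphate pathway, rose from 2.78 ± 1.33 to 7.15 ± 3.86 CPM (1.37, adjusted p = 0.0273), and Ugdh measured 0.54. None of the 18 genes of selenoprotein synthesis and other selenoproteins and none of the 10 NRF2 partners and repressors was called in females.

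In males none of the 132 pathway genes was called by edgeR, while DESeq2 called 2 and limma-voom 3, all lower. An unadjusted p under 0.05 by edgeR was found for 16 of the 132 and for 1657 of the 19616 genes tested. Blvrb averaged 225 ± 116 CPM in male controls and 134 ± 31.3 CPM with Western diet, Gstm5 73.3 ± 32.7 and 44.9 ± 6.58 CPM, and Sesn2 21.1 ± 7.13 and 20.7 ± 2.97 CPM. Averaged over both sexes 16 were called, 10 lower and 6 higher, where 3.51% of all genes were called lower and 2.19% higher. Among them Blvrb measured -0.87, Gstm5 -0.77, Hagh -0.62, Mthfd1 -0.55 and Chac2 -0.46, and Txndc12 0.29, Sesn3 0.45 and Pon2 -0.27. For diet in females, 3 of the pathway genes were called without female control libraries 5 and 6, against 12 with them, and 0 with the erythroid progenitor covariate. Leaving out single libraries gave 6 to 19 calls, with 6 without female control 5 or 6 and 7 without female control 3, while 19 were called without female control 2 or female Western diet 2.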

How the data were processed

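The authors deposited raw read counts per gene, with a file for each library. FastQC, cutadapt, STAR, HTSeq, DESeq2 and GRCm39 are named in the submitters' processing notes, and the sources used here do not give their versions, the annotation or the strand setting. The HTSeq summary rows (31.0 to 39.3% of each total) are not genes and were left out. Of 55414 identifiers 52081 matched a symbol in GENCODE M21, an annotation of GRCm38 used for names, chromosomes and exon lengths only. No pair of libraries repeated another (lowest chi-square per degree of freedom 17.2).

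With edgeR 4.0.16 (R 4.3.3), genes were kept by filterByExpr (19616), scaled by TMM (factors 0.932 to 1.05) and fitted over all 24 libraries with terms for group and batch in a robust quasi-likelihood model (biological coefficient of variation 0.261). P-values are two-sided and adjusted by Benjamini-Hochberg over all genes of a comparison. A standard error is the log2 fold change divided by the root of F. The comparisons were diet in females, in males and averaged, the difference of the diet effects, sex within each diet, and batch. The fit was also run on simulated counts that held no batch differences and no outlying libraries, so that run does not bear on either. Alternatives used DESeq2 1.42.0, limma-voom from limma 3.58.1, other normalizations and filters, a model without batch, a block for the replicate number, batches or libraries left out, and marker levels as covariates, of which the erythroid progenitor level was added after the data were seen.

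The 39 genes, the 136 pathway genes and the marker lists (123 of 124 symbols matched) were chosen with earlier results of these data known. Named are every gene of the 39 called in a comparison, Nfe2l2, Keap1, Nqo1, Hmox1, the gene with the highest level per length in each role, the 6 with the smallest p for diet in each sex, the 8 called pathway genes with the smallest p in each diet comparison (an item among them is not reported here), and the most abundant gene of each marker list. Ratios of mitochondrial to cytosolic enzymes and the others named were chosen after values were seen.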

Additional observations from a re-analysis of the deposited data

Results flagged for a closer look

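In 5 of 156 tests of the 39 genes in the 4 groups, the highest or lowest library lay far from the other 5 (its gap to the next library, over the range, was above Dixon's critical value), and chance flags about 1 in 20. In control males, library 1 was high for Cat at 182.3 CPM (next 150 CPM) and for Glrx at 85.16 CPM (next 57.1 CPM), library 2 was high for Gclc at 48.9 CPM (next 36.4 CPM), and library 5 was high for Prdx4 at 92.52 CPM (next 76.7 CPM). In Western-diet males, library 3 was low for Prdx3 at 123.1 CPM (next 156 CPM). None of the 5 was in a female group, and Cat, Glrx, Gclc and Prdx4 were not called in any comparison. The test measures the gap to the next library, so a pair of libraries that is high together can escape it. The female controls of batch 3 were such a pair for Txnrd2, where they were the highest of all libraries. The lack of flags in female groups therefore does not show that these groups hold no outlying libraries.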

How the results depend on the processing

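Main counts of the 39 genes called were 6 for diet in females, 0 in males, 9 averaged, 0 for the difference of the diet effects, 0 for sex in each diet and 15 for batch. For diet in females the count was 2 without a batch term, with batch 2 or batch 3 left out, or with the proliferation level as covariate, 1 without female control libraries 5 and 6, and 0 in batch 1 or batch 2 alone or with the erythroid progenitor covariate, while batch 3 alone gave 8, of which 3 were higher. For the average it was 4 without a batch term, 5 without batch 2 or without female control libraries 5 and 6, 2 without batch 3, 3 with the mature erythroid and 1 with the proliferation covariate, and 0 in batch 1 or 2 alone or with the erythroid progenitor covariate. For diet in males it was 3 without a filter on low counts, 3 by DESeq2 and 2 by limma-voom. Without that filter it was also 1 for the difference (Glrx5), 3 for sex in controls and 1 for sex in Western-diet pups, and by DESeq2 or limma-voom it was 1 for sex in controls. For batch it was 1 without batch 3, 3 with the proliferation and 1 with the erythroid progenitor covariate. The cause was not tested, beyond the smaller number of libraries where some are left out. Where the share of all genes called under a setting is not given, a change in these counts need not be particular to the 39 genes. Leaving out 1 library at a time gave 4 to 9 for diet in females, 6 to 13 averaged, 13 to 16 for batch and 0 in the other 4 comparisons. With the erythroid progenitor covariate Nqo1 (0.16) and Prdx3 (0.11) turned positive in females, and Nqo1 (0.0483), Gsta4 (0.0674) and Txnrd2 (0.0571) in the average, none of them called. Of 44 alternatives for diet in females the call was lost or reversed in 3 for Mgst3, 5 for Txnrd2, 8 for Nqo1, 9 for Prdx2, 19 for Gpx4 and 26 for Prdx3. With the replicate number as a replicate block the counts were 4 in females, 0 in males and 7 averaged. Same-numbered libraries of different groups correlated in their deviations from the group means at -0.25 to 0.37, and at -0.43 to 0.17 once the batch means were removed, so the numbers were not taken to pair the libraries beyond the batch they share. The 132 pathway genes gave 0 to 34 calls over the alternatives in females and 0 to 28 averaged. Depth was not limiting except for Me1, with at most 18 counts.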
